A study of Mus musculus with 9 samples.

Results

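The genes described here make, modify, store and burn fatty acids. They were listed by name: 46 genes, of which 45 had a probe set carrying exactly 1 gene symbol, out of 19938 genes measured. Acsl3 shared its probe set with another symbol and is not analysed here. Where a gene had several probe sets, the one with the highest mean was used. The list was divided by step into synthesis (5 genes), desaturation (6), elongation (5), uptake and activation (7 of 8 measured), storage and release (9), oxidation (8) and transcription factors (5).

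The values came from 9 lines of 4T1, a mouse mammary carcinoma that spreads to distant organs, each on 1 Affymetrix array. Of these, 3 lines were grown from brain metastases (4T1-BM2), 3 from lung metastases (4T1-LM2) and 3 from primary tumors (4T1-T2), every line from another mouse, and no agent or engineered allele is named for any group. All lines were thawed and grown in parallel before RNA was taken, so what was measured is cells in a dish, away from the tissue of origin. Lines of 1 origin carry a common name, and whether they share a selected ancestor is not stated, which would leave fewer independent samples than 3. Values are log2 intensities, where a step of 1 is a doubling. The median of probe sets with no gene symbol, 4.18, was taken as the background level. All 6 mammary carcinoma markers looked for were above it in every origin. In the adipocyte list 3 of the 6 measured were below it on all 9 arrays and 3 had every origin mean above it. The adipocyte list averaged 4.15 to 4.21 in brain, 4.17 to 4.26 in lung and 4.05 to 4.22 in primary lines. None of the adipocyte, endothelial, macrophage, glial, neuronal, alveolar or fibroblast markers was called between origins in limma, a linear model for arrays with moderated variances. Every origin mean was above background for 2 of 7 endothelial, 3 of 8 macrophage and 3 of 6 glial markers. The same held for 4 of 6 neuronal, 4 of 6 alveolar and 3 of 6 fibroblast markers. Not being called is therefore no measure of whether such cells were present.

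Fatty acids are built in the cytosol: ATP citrate lyase turns citrate into acetyl-CoA, acetyl-CoA carboxylase makes malonyl-CoA, and fatty acid synthase joins the units into palmitate. Elongases and desaturases then lengthen the chain and insert double bonds. Surplus chains are esterified and kept in lipid droplets, and chains to be burned cross into mitochondria through carnitine palmitoyltransferase, a step that malonyl-CoA inhibits. SREBP transcription factors raise the synthetic genes, and PPAR nuclear receptors raise genes of uptake, storage and oxidation.

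In brain lines the gene of the mitochondrial entry step, Cpt1a, the lipid droplet coat gene Plin3 and the transcription factor gene Srebf1 were lower than in primary lines and lower than in lung lines. Fads3, a desaturase family member, was higher than in primary lines, and Elovl6, the elongase that lengthens palmitate, was higher than in lung lines. Cpt1c, the neuronal relative of Cpt1a, was lower than in lung lines, whose values stood above those of brain and primary lines alike. The core enzymes of synthesis (Fasn, Acaca, Acly) and of the oxidation spiral (Acadm, Acadl, Hadha, Hadhb) did not pass the test in any comparison. Lung and primary lines were not separated by any of the 45 genes in limma. Because each array measured the RNA of a whole culture, fewer cells with a transcript and less transcript per cell cannot be told apart.

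Genes count as called below an adjusted p of 0.05, with the Benjamini-Hochberg adjustment made over the 19938 genes. Against primary lines, brain lines had 4 of 45 genes called, 1 higher and 3 lower, which is 8.89% of the list where 3.13% of all genes were called (1.56% higher and 1.57% lower). Against lung lines, 5 of 45 were called, 1 higher and 4 lower, or 11.1% where 1.98% of all genes were called (0.913% higher and 1.07% lower). The F test over the 3 origins called 5 of 45, where 2.36% of all genes were called. The 2 brain contrasts share the brain lines, so they are not independent of each other. The median log2 change of the 45 genes was 0.07 in brain against primary lines and 0.02 in brain against lung lines, beside 0.00 and -0.01 over all genes tested. Brain lines lay entirely above primary lines in 10 of the 45 genes and entirely below in 6, where the shares over all genes were 9.36% and 8.47%. They lay entirely above lung lines in 9 and entirely below in 7, where the shares over all genes were 8.27% and 8.63%, so non-overlap ran at 16 of 45 in each contrast beside 17.8% and 16.9%.

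The count against primary lines was 2 without primary line 1 or without primary line 2, and 3 without both brain line 3 and lung line 1, the arrays with the widest spread around the gene medians. The count against lung lines was 3, 2, 1, 0 and 1 without brain line 1, brain line 3, lung line 1, lung line 2 and lung line 3, and 0 without both brain line 3 and lung line 1.

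**Figure D1:**
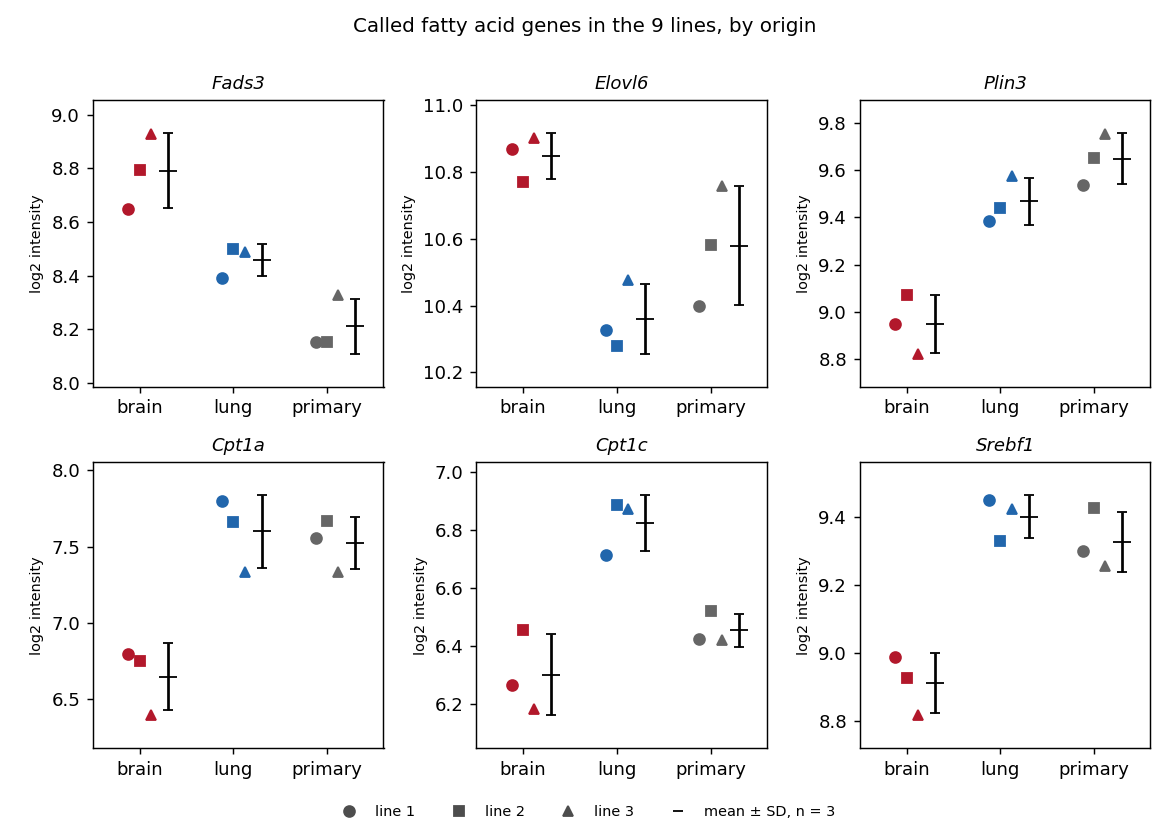
Log2 intensity (vertical axis, a separate range in each panel) of the 6 called fatty acid genes in brain, lung and primary lines, with a symbol per line and the mean ± SD (n = 3) beside each group. Cpt1a, Plin3 and Srebf1 have all brain points below all lung and primary points, and Fads3 and Elovl6 have them above.

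Synthesis came first in the order of steps. Acly, the ATP citrate lyase gene, had log2 intensities of 11.01, 11.03 and 10.70 in brain lines, against 10.59, 10.60 and 10.71 in lung lines and 10.70, 10.54 and 10.73 in primary lines. Brain lines 1 and 2 stood above every other line, while brain line 3 lay among the lung and primary values. The log2 change of Acly was 0.26 ± 0.10 against primary lines (SE of the model, 3 lines per origin, limma adjusted p = 0.222) and 0.28 ± 0.10 against lung lines (adjusted p = 0.2), so it did not pass. Fasn, the fatty acid synthase gene, had 10.51, 10.50 and 10.42 in brain lines, 10.47, 10.27 and 10.32 in lung lines and 10.48, 10.37 and 10.20 in primary lines. Its groups overlapped, and the 95% interval of its log2 change ran between -0.07 and 0.32 in brain against primary lines. Acaca, the carboxylase gene, had a log2 change of 0.18 with an interval between -0.04 and 0.40 in the same contrast, and its second probe set gave 0.12. Acss2, which makes acetyl-CoA from acetate, had 0.22 ± 0.11 (adjusted p = 0.364), and Acacb, the carboxylase isoform at the mitochondrial surface, 0.03 ± 0.07 (adjusted p = 0.905). All 5 values against primary lines were above 0, with a median of 0.18, but none passed, and Acacb ran between -0.03 and 0.10 over the alternative fits. Averaged over the 5 genes, brain lines 1 and 2 were 0.22 above the mean of the primary lines each and brain line 3 was 0.06 above it, while lung lines lay at 0.05, 0.01 and 0.06.

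Desaturases insert double bonds, Scd enzymes at the delta-9 position of saturated chains and Fads enzymes mainly in polyunsaturated ones. Fads3, whose product acts on sphingoid bases, had log2 intensities of 8.65, 8.79 and 8.93 in brain lines, 8.39, 8.50 and 8.49 in lung lines and 8.15, 8.15 and 8.33 in primary lines. No values overlapped between any pair of origins, with brain lines highest and primary lines lowest. Fads3 rose 1.5-fold in brain against primary lines (log2 change 0.58 ± 0.09, SE, limma adjusted p = 0.0093), and that call held in all 9 fits that left out 1 line (adjusted p between 0.0119 and 0.0436). It was lost only when the 6 arrays of brain and primary lines were fitted alone (adjusted p = 0.0518). Against lung lines the log2 change was 0.33 ± 0.09 and did not pass (adjusted p = 0.1). Fads3, Fads2 and Fads1 are adjacent protein-coding genes in the RefSeq annotation of GRCm38.p6. In brain against primary lines Fads2, the delta-6 desaturase gene, had 0.30 ± 0.10 (adjusted p = 0.166) and Fads1, the delta-5 desaturase gene, -0.02 ± 0.08 (adjusted p = 0.956). The interval of Fads1, between -0.21 and 0.17, did not reach that of Fads3, between 0.38 and 0.78. Whether the neighbours differed from each other was not tested.

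Scd2, a stearoyl-CoA desaturase, had 12.54, 12.50 and 12.30 in brain lines, 12.32, 12.30 and 12.29 in lung lines and 12.22, 12.09 and 12.25 in primary lines. Brain lines lay above primary lines without overlap, by a log2 change of 0.26 ± 0.08 that did not pass (adjusted p = 0.133). Scd1, the isoform best known from liver, had 9.72, 9.58 and 9.25 in brain lines, 9.54, 9.59 and 9.55 in lung lines and 9.14, 9.32 and 9.43 in primary lines, and brain lines overlapped with both. Fads6, a family member of unsettled function, had a log2 change of 0.13 ± 0.12 against primary lines (adjusted p = 0.7).

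The promoter windows of Fads3 and of the called genes with the largest falls against primary lines, Cpt1a and Plin3, are shown so that their letters can be compared. They run between 250 bases before and 50 bases after the annotated start in RefSeq's GRCm38.p6, 5′ to 3′ on the gene's strand, and capitals mark matches on either strand to the CCAAT box (CCAAT) and the GC box (GGGCGG). The windows are chr19:10041298-10041597 on the plus strand for Fads3, chr17:56290462-56290761 on the minus strand for Plin3 and chr19:3323051-3323350 on the plus strand for Cpt1a.
Fads3: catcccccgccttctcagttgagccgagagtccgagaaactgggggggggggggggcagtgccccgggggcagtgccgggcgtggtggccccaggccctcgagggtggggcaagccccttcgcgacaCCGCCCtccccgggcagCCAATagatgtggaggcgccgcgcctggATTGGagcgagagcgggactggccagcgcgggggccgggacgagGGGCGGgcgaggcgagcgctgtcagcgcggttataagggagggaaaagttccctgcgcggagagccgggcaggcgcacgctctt
Plin3: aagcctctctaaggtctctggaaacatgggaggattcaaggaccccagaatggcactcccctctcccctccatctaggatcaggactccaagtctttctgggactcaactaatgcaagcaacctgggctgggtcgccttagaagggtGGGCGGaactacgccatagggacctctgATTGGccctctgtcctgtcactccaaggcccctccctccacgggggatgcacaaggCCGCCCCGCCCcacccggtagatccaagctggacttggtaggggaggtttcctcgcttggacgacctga
Cpt1a: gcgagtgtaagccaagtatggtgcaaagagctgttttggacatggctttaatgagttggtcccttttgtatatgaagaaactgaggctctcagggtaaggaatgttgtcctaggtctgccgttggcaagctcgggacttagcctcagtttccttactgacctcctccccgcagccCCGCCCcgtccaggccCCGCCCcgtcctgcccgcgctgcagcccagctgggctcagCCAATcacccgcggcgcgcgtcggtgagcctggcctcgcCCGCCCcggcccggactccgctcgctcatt
Fads3 holds 2 CCAAT and 2 GC box matches, Plin3 1 and 3, and Cpt1a 1 and 3, with 2 of the GC box matches in Plin3 overlapping. CCAAT occurs in 37.4% and GGGCGG in 35.7% of all 32851 windows in the table, so the riser and both fallers carry letters that are common in promoters. The table held 45 windows for 37 of the 46 genes, with CCAAT in 21 of the 45 and GGGCGG in 30 of the 45. The sterol regulatory element TCACNCCAC, the site best known for SREBP, was found in 1 of the 45, a window of Mlxipl, and in 1.24% of all windows. The E-box CACGTG, a site of several helix-loop-helix factors, was in 4 (Elovl5, Lipe, Mlxipl and Plin2) and in 7.15% of all windows. The PPAR site, AGGTCA repeated after a spacer of 1 base, was in none of the 45 and in 0.0396% of all windows. These counts describe only 300 bases per start.

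Elongases add carbon units to chains of particular lengths. Elovl6, which lengthens palmitate to stearate, had log2 intensities of 10.87, 10.77 and 10.90 in brain lines, 10.33, 10.28 and 10.48 in lung lines and 10.40, 10.58 and 10.76 in primary lines. All brain values were above all others, though primary line 3, at 10.756, came close to the lowest brain line, at 10.769. Elovl6 rose 1.40-fold in brain against lung lines (log2 change 0.49 ± 0.10, SE, limma adjusted p = 0.0378), and had 0.27 ± 0.10 against primary lines (adjusted p = 0.205). That rise missed the threshold when lung line 1 (0.117), 2 (0.152) or 3 (0.0676), brain line 1 (0.0915), 2 (0.0735) or 3 (0.117), or primary line 2 (0.0684) was left out, with repeated quantile normalization (0.0551), without both brain line 3 and lung line 1 (0.215) or with only the 6 arrays compared (0.0552). Elovl1, which makes very long saturated chains, had 9.60, 9.93 and 9.64 in brain lines, 9.42, 9.47 and 9.47 in lung lines and 9.19, 9.39 and 9.35 in primary lines. Its brain lines overlapped with neither other origin, and its log2 change of 0.41 ± 0.10 against primary lines missed the threshold (adjusted p = 0.0517). It passed under 6 of 18 alternative fits (adjusted p between 0.0311 and 0.042), those with repeated quantile normalization, median centring, no dimmest genes, an intensity trend, array weights or the block. Elovl5, which lengthens polyunsaturated chains, had 0.13 ± 0.08 and Elovl7 -0.19 ± 0.11 against primary lines, neither of which passed. Elovl3 averaged 3.46, 3.52 and 3.50 in brain, lung and primary lines, below background.

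Uptake and activation held no called gene. Acsl4, which activates arachidonate and other polyunsaturated fatty acids to acyl-CoA, had log2 intensities of 10.28, 10.24 and 9.42 in brain lines, 10.76, 10.78 and 10.59 in lung lines and 10.68, 10.50 and 10.33 in primary lines. Brain lines were lowest without overlap, but brain line 3 stood far below the other brain lines, and the SD of 0.49 in brain lines was the largest of any of the 45 genes in any origin. The log2 change of Acsl4 was -0.73 ± 0.20 against lung lines (SE, limma adjusted p = 0.113) and -0.53 ± 0.20 against primary lines (adjusted p = 0.23). With the mouse number as a block, the change against lung lines passed (adjusted p = 0.0339). Same-numbered mice of different origins were separate animals, so this block does not reflect a paired design. Fabp5, a cytosolic fatty acid carrier of epithelia, had 10.30, 10.33 and 10.48 in brain lines, 9.58, 9.96 and 10.07 in lung lines and 9.80, 9.91 and 10.26 in primary lines. All brain values were above the rest, with a log2 change of 0.50 ± 0.15 against lung lines (adjusted p = 0.131, and 0.0312 with the block) and 0.51 in its second probe set. Acsl5, an acyl-CoA synthetase of mitochondria and endoplasmic reticulum, had 0.08 ± 0.11 against lung lines and 0.23 ± 0.11 against primary lines, and Fabp3, the heart-type carrier, -0.12 ± 0.16 and 0.04 ± 0.16, none of which passed, and the second probe set of Fabp3 had the opposite sign in each (0.04 and -0.01). The remaining 3 genes of this step were below background in every origin. Cd36, a fatty acid translocase, averaged 2.81, 2.79 and 2.79 in brain, lung and primary lines. Lpl, the lipoprotein lipase, averaged 3.37, 3.55 and 3.46, and Fabp4, the adipocyte carrier, 3.56, 3.67 and 3.70.

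**Figure D2:**
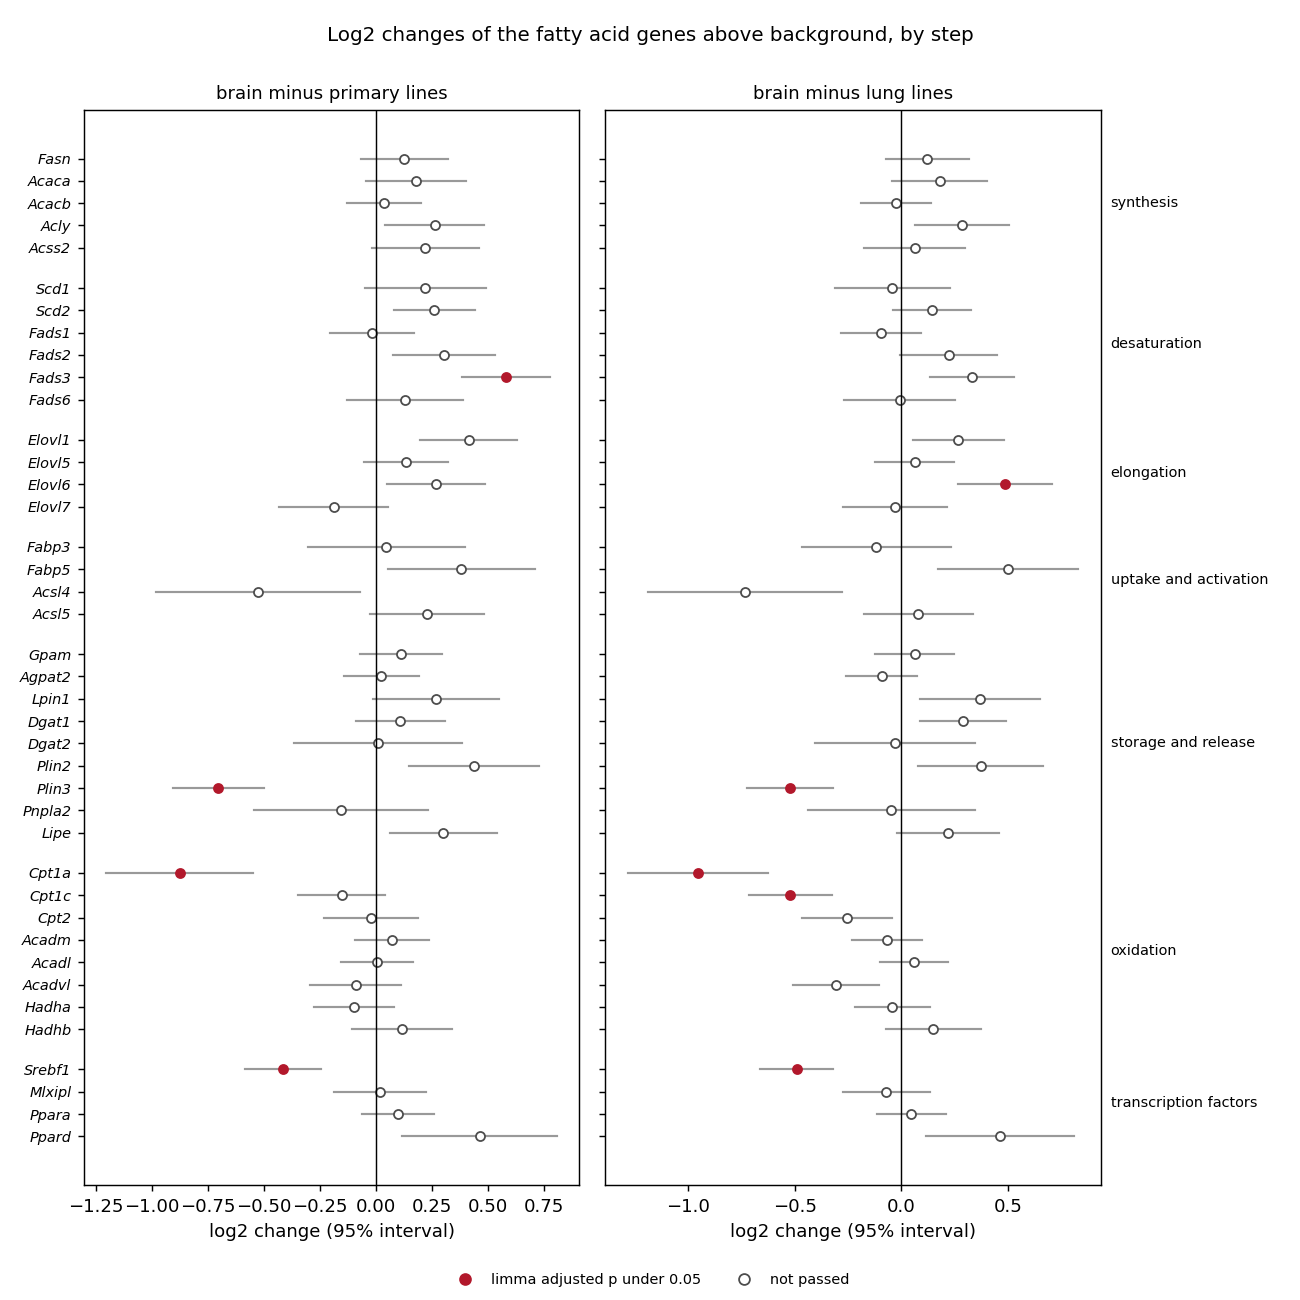
Log2 change (horizontal axis) of the 40 fatty acid genes above background, grouped by step, in brain minus primary lines (left) and brain minus lung lines (right), with 95% intervals of the limma model. Filled points passed at an adjusted p under 0.05: Fads3, Plin3, Cpt1a and Srebf1 on the left, and Elovl6, Plin3, Cpt1a, Cpt1c and Srebf1 on the right.

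Storage and release genes esterify fatty acids, coat the lipid droplet or free the chains again. Plin3, a perilipin that moves between cytosol and nascent droplets, had log2 intensities of 8.95, 9.07 and 8.82 in brain lines, 9.39, 9.44 and 9.58 in lung lines and 9.54, 9.65 and 9.75 in primary lines. All brain values were below all others. Plin3 fell in brain lines, 1.63-fold against primary lines (log2 change -0.70 ± 0.09, SE, limma adjusted p = 0.00491) and 1.44-fold against lung lines (-0.52 ± 0.09, adjusted p = 0.0217). The call against primary lines held under all 18 other fits. Against lung lines the call was lost when lung line 1 (0.0543), 2 (0.0905) or 3 (0.0795) or brain line 1 (0.059) or 3 (0.0681) was left out. It was also lost without both brain line 3 and lung line 1 (0.106), and with only the 6 arrays compared (0.0625).

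Plin2, the perilipin that stays on droplets, went the other way in value, with 9.83, 10.26 and 10.41 in brain lines, 9.90, 9.74 and 9.75 in lung lines and 9.74, 9.74 and 9.71 in primary lines. Brain lines 2 and 3 were above every other line and brain line 1 was not. Its log2 change of 0.44 ± 0.13 against primary lines did not pass (adjusted p = 0.115), and without brain line 1 it was called against both primary (0.0119) and lung lines (0.025). Among the esterifying enzymes, Lpin1, the phosphatidate phosphatase, had 8.11, 8.13 and 7.98 in brain lines, above all lung (7.63, 7.52 and 7.97) and primary lines (7.60, 7.90 and 7.90). Dgat1 and Dgat2, which complete triglyceride synthesis, had log2 changes of 0.29 ± 0.09 and -0.03 ± 0.17 against lung lines, and Gpam and Agpat2, which act earlier, 0.06 ± 0.08 and -0.09 ± 0.07. Of the lipases, Lipe had 0.30 ± 0.11 and Pnpla2 -0.16 ± 0.17 against primary lines. None of these 7 genes passed in any contrast.

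Oxidation held 2 called genes, Cpt1a of the mitochondrial entry step and its relative Cpt1c, which is located in the endoplasmic reticulum. Cpt1a, which makes acylcarnitine at the outer mitochondrial membrane, had log2 intensities of 6.79, 6.75 and 6.39 in brain lines, 7.80, 7.66 and 7.34 in lung lines and 7.56, 7.67 and 7.34 in primary lines. No brain value reached the lowest value of the other origins. Cpt1a fell 1.83-fold against primary lines (log2 change -0.87 ± 0.15, SE, limma adjusted p = 0.0139) and 1.94-fold against lung lines (-0.95 ± 0.15, adjusted p = 0.0154), the largest changes of the 45 genes in both contrasts. The call against primary lines was lost without primary line 1 (0.0565) or 2 (0.061). The call against lung lines was lost without lung line 1 (0.0594) or 2 (0.08), without both brain line 3 and lung line 1 (0.106) and with only the 6 arrays compared (0.0552).

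Cpt1c, a family member of neurons located in the endoplasmic reticulum, had 6.27, 6.46 and 6.18 in brain lines, 6.71, 6.88 and 6.87 in lung lines and 6.42, 6.52 and 6.42 in primary lines. The lung lines were above every other line, and brain and primary lines overlapped. Cpt1c fell 1.43-fold in brain against lung lines (log2 change -0.52 ± 0.09, adjusted p = 0.0211) and had -0.15 ± 0.09 against primary lines (adjusted p = 0.465). That call ended when lung line 2 (0.0946) or 3 (0.0717) or brain line 1 (0.0568) or 3 (0.0571) was left out, without both brain line 3 and lung line 1 (0.0713) and with only the 6 arrays compared (0.0725). The log2 change of Cpt1c in lung against primary lines was 0.37 ± 0.09, with no overlap, and did not pass (adjusted p = 0.975).

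Cpt2, which regenerates acyl-CoA inside the mitochondrion, and Acadvl, the very long chain dehydrogenase, showed the same order as values. Cpt2 had 7.45, 7.35 and 7.45 in brain lines, 7.60, 7.84 and 7.58 in lung lines and 7.30, 7.45 and 7.57 in primary lines. Acadvl had 8.45, 8.23 and 8.20 in brain lines, 8.55, 8.75 and 8.50 in lung lines and 8.39, 8.43 and 8.34 in primary lines. In both, lung lines were above all others, and neither passed against brain lines (log2 change in brain against lung lines -0.25 ± 0.09 and -0.30 ± 0.09, adjusted p = 0.234 and 0.134). Of the enzymes downstream, against primary lines the intervals were -0.09 to 0.24 for Acadm and -0.16 to 0.16 for Acadl, the medium and long chain dehydrogenases, and -0.28 to 0.08 for Hadha and -0.11 to 0.34 for Hadhb, the trifunctional protein subunits. Changes larger than these bounds are outside the 95% intervals of the model. Averaged over the 8 oxidation genes, brain lines were at -0.08, -0.16 and -0.16 relative to the mean of primary lines, while lung lines were at 0.06, 0.22 and 0.05 and primary lines at -0.04, 0.05 and -0.01. Most of the brain value relative to primary lines came from Cpt1a. Without it the other 7 genes averaged 0.01, -0.07 and -0.02 in brain lines and 0.03, 0.23 and 0.09 in lung lines. Each brain line thus stayed below each lung line. Without Cpt1c as well, the mean over the brain lines was 0.00 and over the lung lines 0.07, and the lines of these origins overlapped.

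**Figure D3:**
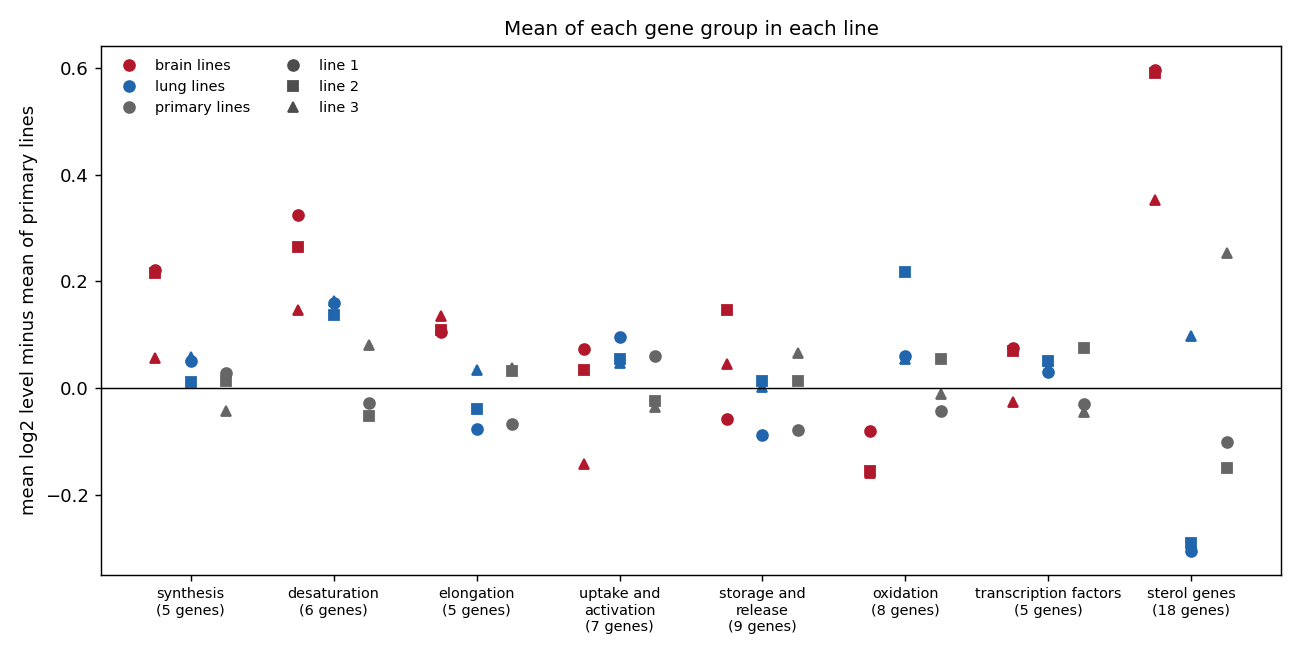
Mean log2 level of each gene group in each line, minus the mean of the primary lines (vertical axis), for brain, lung and primary lines, with a symbol per line number. Within the oxidation group the 3 brain lines are lowest, at -0.08 to -0.16. Relative to primary lines this rests mostly on Cpt1a, while the brain lines stay below the lung lines without it. Within the sterol genes the brain lines are highest, at 0.35 to 0.60.

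Transcription factors that control these genes were measured as transcripts, not as active protein. Srebf1, whose product SREBP1 drives fatty acid synthesis after it is cut in the Golgi, had log2 intensities of 8.99, 8.93 and 8.82 in brain lines, 9.45, 9.33 and 9.42 in lung lines and 9.30, 9.43 and 9.26 in primary lines. All brain values were below all others. Srebf1 fell 1.33-fold against primary lines (log2 change -0.42 ± 0.08, SE, limma adjusted p = 0.0202) and 1.40-fold against lung lines (-0.49 ± 0.08, adjusted p = 0.0161). Against primary lines the call was lost without brain line 2 (0.0567) or 3 (0.0597), primary line 1 (0.0592) or 2 (0.0756), both brain line 3 and lung line 1 (0.0695), or with only the 6 arrays compared (0.0675). Against lung lines it was lost without lung line 1 (0.0574), 2 (0.0521) or 3 (0.0574), both brain line 3 and lung line 1 (0.109), or with only the 6 arrays compared (0.0507).

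Srebf2, whose product mainly drives cholesterol synthesis, had 9.81, 9.91 and 9.75 in brain lines, 9.33, 9.28 and 9.44 in lung lines and 9.35, 9.29 and 9.68 in primary lines. Its brain values lay above all others, opposite to Srebf1, with a log2 change of 0.48 ± 0.11 against lung lines (adjusted p = 0.0537) and 0.39 ± 0.11 against primary lines (adjusted p = 0.0869). Neither passed, though 5 of 18 alternative fits called it against lung lines and 2 of 18 against primary lines, among them those without primary line 3 (0.0201 and 0.0241). Of 17 measured partners and controllers of these factors, among them Scap, Insig1 and the RXR genes, none was called in limma in any contrast, while 6, 4 and 0 had an unadjusted p under 0.05 in brain against primary, brain against lung and lung against primary lines, where 15.8%, 14.9% and 4.74% of all genes did. Of 18 sterol synthesis genes, 6 rose and 0 fell against primary lines, and 10 rose and 0 fell against lung lines, 33.3% and 55.6% of them where 3.13% and 1.98% of all genes were called. The largest of these rises was in Hsd17b7, by 1.31 ± 0.14 on the log2 scale against lung lines.

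Ppard, which encodes PPAR delta, had 8.40, 9.0005 and 8.47 in brain lines, 8.09, 8.31 and 8.08 in lung lines and 8.17, 8.32 and 7.9963 in primary lines. Its brain values were above all others, and the log2 change was 0.46 ± 0.15 against each (adjusted p = 0.184 against lung and 0.162 against primary lines). With the mouse number as a block, which is again no paired design, it passed against lung lines (0.0465). Mlxipl, the carbohydrate response factor, had 5.33, 5.01 and 5.17 in brain lines, 5.20, 5.16 and 5.37 in lung lines and 5.12, 5.17 and 5.17 in primary lines, which overlapped. Ppara, the PPAR of liver oxidation, had 4.40, 4.26 and 4.26 in brain lines, 4.26, 4.29 and 4.22 in lung lines and 4.11, 4.26 and 4.26 in primary lines, close to background. Pparg, the PPAR of adipocytes, had 3.92, 3.82 and 3.82 in brain lines, 3.82 in each lung line and 3.82, 3.86 and 3.76 in primary lines, below background. Of 16 measured PPAR target genes outside the list, none was called in limma in any contrast, with 3, 2 and 1 at an unadjusted p under 0.05 in the same 3 contrasts, beside the shares over all genes given above for the partners.

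The wider pathway was read from 95 further measured genes of synthesis, transport, oxidation and droplets. In brain against primary lines 2 rose and 4 fell, 6.32% of them where 3.13% of all genes were called. The largest fall was in Acot1, a cytosolic acyl-CoA thioesterase, with log2 intensities of 4.72, 4.71 and 4.53 in brain lines, 5.67, 5.61 and 5.76 in lung lines and 6.15, 5.85 and 6.99 in primary lines. The 3 origins did not overlap, with brain lines lowest and primary line 3 far above the others. The brain values were not far above the background level of 4.18, which limits how exactly the size of the fall can be read. Acot1 fell 3.20-fold against primary lines (log2 change -1.68 ± 0.23, SE, limma adjusted p = 0.00595), a call that held without any 1 line, and had -1.03 ± 0.23 against lung lines (adjusted p = 0.0557). The change against lung lines passed under 7 of 18 alternative fits, with the mouse number as a block (0.0472), without primary line 2 (0.0405) or 3 (0.0038), with only the 6 arrays compared (0.0108), without the dimmest genes (0.0347), with an intensity trend (0.0453) and with array weights (0.049). The call against primary lines was lost without both brain line 3 and lung line 1 (0.0539) and with only the 6 arrays compared (0.0544). Acot1 has a close mitochondrial relative, Acot2 (-0.33 ± 0.08 against primary lines, adjusted p = 0.055), and how far their probes share signal was not tested.

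Slc27a1, a fatty acid transport protein that also activates its cargo, had 9.07, 9.38 and 8.87 in brain lines and 9.65, 9.81 and 9.64 in primary lines, a fall of 0.59 ± 0.13 on the log2 scale (adjusted p = 0.0397). Crot, which makes carnitine esters in peroxisomes, had 8.54, 8.17 and 8.51 in brain lines and 8.91, 8.95 and 8.93 in primary lines (-0.52 ± 0.12, adjusted p = 0.0466). Mecr, a reductase of the separate mitochondrial synthesis pathway, had 8.32, 8.60 and 8.57 in brain lines and 8.07, 8.06 and 7.84 in primary lines (0.50 ± 0.11, adjusted p = 0.0388). In each of these the brain values were clear of the primary values. The others called were Me1, the malic enzyme that supplies NADPH (0.33 ± 0.06, adjusted p = 0.0259), and Gpat4, an early enzyme of glycerolipid synthesis (-0.34 ± 0.07, adjusted p = 0.027). The call was lost in between 5 and 8 of the 9 fits without 1 line for these 5 genes, with the largest adjusted p at 0.135 for Crot without primary line 2. Centring each array on its median ended the calls of Crot (0.0769) and Gpat4 (0.101), and the replicate block that of Crot (0.0645). The count of 6 was 2, 3 and 2 without brain line 1, 2 and 3, 3 without lung line 2 or 3, and 1, 2 and 1 without primary line 1, 2 and 3. Against lung lines none of the 95 was called in limma and 27 had an unadjusted p under 0.05, where 14.9% of all genes did. Their log2 changes were above 0 in 40 and below 0 in 55. Brain lines lay entirely above lung lines in 12 and entirely below in 16, where the shares over all genes were 8.27% and 8.63%. Oxidation genes were on both sides, such as Acaa1a, Hsd17b10, Acads and Slc25a20 below, and Eci1 and Acad9 above.

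**Figure D4:**
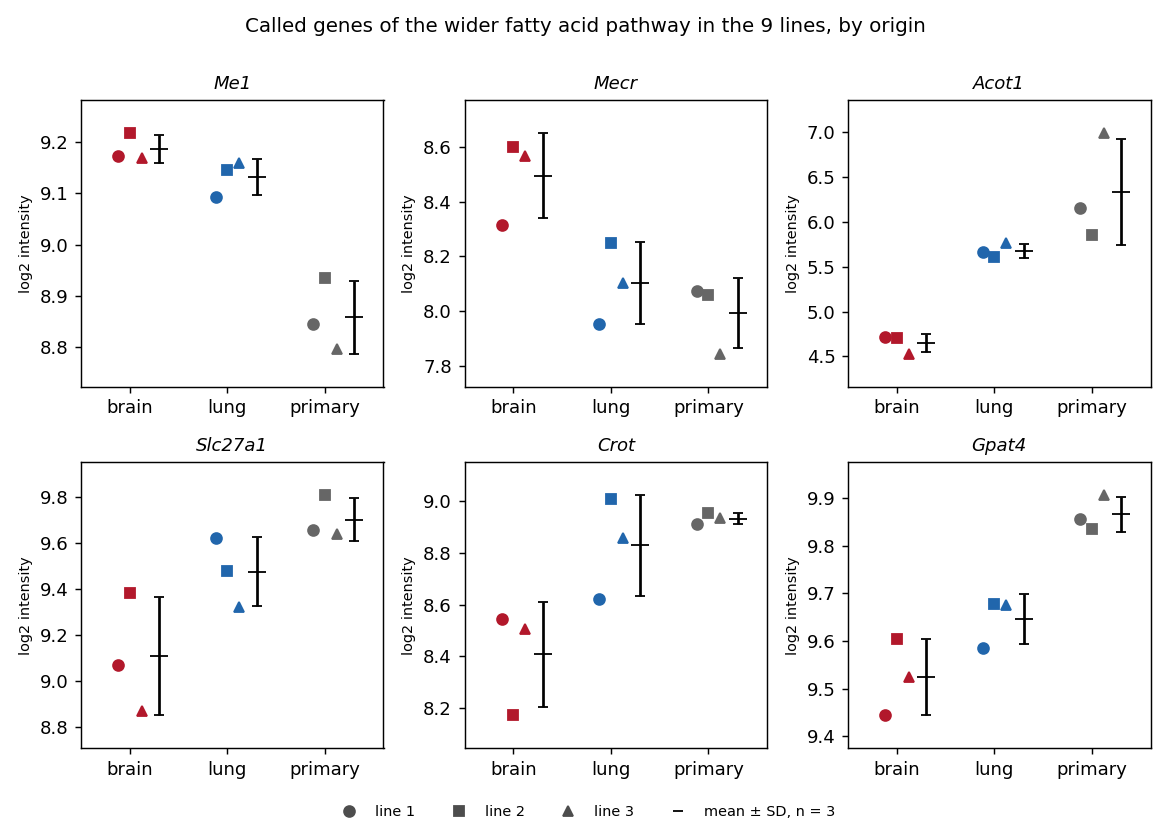
Log2 intensity (vertical axis, a separate range in each panel) of the 6 called genes of the wider fatty acid pathway in brain, lung and primary lines, with a symbol per line and the mean ± SD (n = 3). Acot1 is lowest in brain lines, then in lung lines, and highest in primary lines, and in Me1 the lung points lie close to the brain points.

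Lung and primary lines were compared last. None of the 45 genes was called in limma, where 0.00% of all genes were called and the smallest adjusted p was 0.975, and 4 genes had an unadjusted p under 0.05, where 4.74% of all genes did. The lines of the 2 origins did not overlap in 10 of the 45, 9 higher and 1 lower in lung lines, where 8.71% of all genes did not overlap (4.88% higher and 3.84% lower). Those above were Acss2, Scd1, Scd2, Fads3, Elovl1, Plin2, Cpt1c, Cpt2 and Acadvl, and the one below was Dgat1. Scd1 had a log2 change of 0.26 ± 0.12, Fads3 of 0.25 ± 0.09 and Dgat1 of -0.18 ± 0.09. Of the 95 wider pathway genes none was called and 7 had an unadjusted p under 0.05.

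Some markers of the mammary epithelium moved with origin as well. Of that list of 6, Krt19 and Cdh1 were called higher in brain against primary lines only, and Cldn7 in brain against lung lines only. Epcam, Krt8 and Krt18 were not called. Their log2 changes against primary and lung lines were 0.45 and 0.53 for Epcam, -0.08 and -0.15 for Krt8, and 0.07 and -0.05 for Krt18. The mean level of the list was 10.60 to 10.88 in brain lines, 10.09 to 10.39 in lung lines and 9.77 to 10.34 in primary lines. The part of this marker list in the fatty acid gene values was not tested.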

How the data were processed

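The deposited log2 intensities are RMA values according to the submitters' processing notes. RMA corrects background, quantile-normalizes the arrays and summarizes probe sets. The log base was read off the range of the values, and neither an RMA version nor a genome build is named in the sources used here. Of 35557 probe sets, 21789 had 1 gene symbol in the platform annotation, 1621 several and 12147 none. The highest-mean probe set per symbol gave 19938 genes (999 with several). Array medians were 5.06 to 5.19, and no detection call is given. Precision is limited by having 9 arrays.

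Genes were tested with limma 3.58.1 in R 4.3.3 (lmFit, eBayes, two-sided, 9 arrays, 1 coefficient per origin, 6 residual and 3.72 prior degrees of freedom), tested on simulated data first. An exact test of 3 lines against 3 cannot go below p = 0.1. Intervals are 95% of that model. The genes and lists were chosen with earlier results of these data known. Line values are given for called genes, for the gene with the largest change in a step without one, and for the 5 transcription factors. Per further list, up to 4 called genes per contrast were to be named. Other genes shown (such as Srebf2, Plin2, Fabp5, Me1 and Gpat4) were chosen after their values were seen. In the further lists 188 of 204 symbols matched, and the others are not analysed here.

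Mice carry numbers 1 to 3 within each origin. Deviations from group means of same-numbered brain and lung lines correlated at 0.284, 0.130 and 0.241 across genes. The result with the number as a block is therefore printed for that contrast wherever the call of a named fatty acid gene differs. Only the data give this pairing, as the series' design text has all 9 mice independent. For brain and primary lines the correlations were 0.067, -0.00074 and -0.044, and for lung and primary lines 0.221, 0.079 and 0.0080.

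Alternatives were repeated quantile normalization, median centring, array weights, a robust prior with an intensity trend, leaving out the dimmest genes, the mouse number as a block, leaving out each line, every probe set, only the 6 arrays compared and a threshold of 0.01. Leaving out brain line 3 and lung line 1 together, and the oxidation means without Cpt1a and Cpt1c, were added after seeing the data.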

Additional observations from a re-analysis of the deposited data

How the results depend on the processing

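Among the called genes of the list and the wider pathway, with Acly and Acsl4, no log2 change turned sign. There were 504 alternative values for these 14 genes in both brain contrasts. Of them, 407 kept direction and side of the threshold, 88 were no longer past it and 9 newly passed. All 88 came from contrasts in which the gene was called. The 407 include contrasts in which the gene was not called and stayed so, such as Acly in both. Most of these genes were picked for being called and many fits share most arrays, so a kept sign says little. Of all 45 fatty acid genes, 12 turned sign under some alternative in brain against primary lines and 18 in brain against lung lines, none of them called and none with a log2 change larger in size than 0.16 and 0.12. Leaving out 1 line at a time gave 2 to 5 called fatty acid genes in brain against primary lines, 0 to 5 in brain against lung lines, 1 to 5 over the 3 origins and 0 in lung against primary lines. For the wider pathway it gave 1 to 7, 0 to 1, 0 to 2 and 0 in the same order. With only the 6 arrays compared the fatty acid genes called were 2 against primary and 0 against lung lines, and those of the wider pathway 0 and 1. At an adjusted p under 0.01 they were 2, 0 and, over the 3 origins, 0 for the fatty acid genes, and 1, 0 and 0 for the wider pathway. Without brain line 3 and lung line 1 they were 3, 0 and 0, and 1, 0 and 0. These fits have fewer arrays or a stricter threshold by construction. The replicate block gave 8 fatty acid genes in brain against lung lines in place of 5, adding Fabp5, Acsl4 and Ppard, and 6 in place of 4 against primary lines, adding Elovl1 and Ppard. For the wider pathway against lung lines the block gave 2, repeated quantile normalization 2, array weights 3, an intensity trend with a robust prior 1 and leaving out the dimmest genes 1, in place of 0, and over the 3 origins repeated quantile normalization gave 5 in place of 2. The cause was not tested. Over all genes, the count in brain against primary lines was 624 and went to 197 with only the 6 arrays compared. With 3 arrays per origin and no detection call, changes of genes close to background, such as Ppara, cannot be told from noise.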

Other observations

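The spread among lines of 1 origin was uneven between genes. The largest SD within brain lines was that of Acsl4 (0.49), which brain line 3 set with 9.42 beside 10.28 and 10.24. Within lung lines it was that of Fabp3 (0.34), the heart-type fatty acid carrier, where lung line 1 had 5.01 beside 4.56 and 4.34. Within primary lines it was that of Pnpla2 (0.33), the first lipase of droplet triglyceride, where primary line 3 had 8.37 beside 7.86 and 7.76. Acadm, the medium chain dehydrogenase, had 9.67, 9.66 and 9.66 in brain lines, among the closest values of any gene in the list. Brain lines 2 and 3, lung line 1 and primary line 2 all had exactly 9.6647. Such exact ties across origins also occurred in other genes of the list, among them Cd36, Pparg, Cpt2 and the called gene Cpt1a. In Cpt1a lung line 3 and primary line 3 both had 7.3367. The small spread of Acadm therefore cannot be read as agreement of the lines. The source of the ties was not tested.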
